A study of Mus musculus with 8 samples.

Results

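The 10 immediate early genes described here are Fos, Fosb, Jun, Junb, Jund, Egr1, Ier2, Ier3, Klf6 and Myc. They were taken by name from the symbol column of the array table, which holds 28908 symbols after updating, and had 13 of its 45281 probes. Jund was listed there under the older symbol Jund1, and the other 12 probes carried the current symbol. Illumina bead arrays with a single colour were used to measure liver RNA, with 1 array for each of 8 male C57BL/6J mice listed at 25 weeks of age. From the age of 6 weeks all mice were fed a diet in which fat supplied 60% of the calories. Once 14 weeks had passed, 4 mice received intraperitoneal antisense oligonucleotide (ASO, a synthetic single strand that pairs with an RNA and lowers it) against Mogat1, and the other 4 mice a scrambled control ASO. The dose of either agent was 25 mg/kg in 2 injections per week over 3 weeks, so the control livers had been exposed to an oligonucleotide too. The comparison asks how the liver transcriptome differed when the ASO was directed against Mogat1, an enzyme that makes diacylglycerol.

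Immediate early genes are transcribed within minutes of a signal reaching the cell, without new protein synthesis, and many of their RNAs are short-lived. Growth factors, cytokines, stress and feeding reach them through MAP kinases, serum response factor and CREB. Fos and Jun proteins pair through leucine zippers to form the AP-1 factor. In liver the family is best known for its rapid response to partial hepatectomy and to acute injury, and Jun for a role in hepatocyte survival and regeneration.

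The RefSeq promoter table held 7 of the 10 genes: Fos, Fosb, Ier3, Jun, Jund, Junb and Klf6. The 250 bases before the start of Jun and of Jund are printed, since these members had the largest differences between the groups. They are from build GRCm38.p6, minus strand at chr4:95052223-95052472 for Jun and plus strand at chr8:70697489-70697738 for Jund, 5′ to 3′. Capitals mark matches to any of 7 motifs searched on both strands: TGACGTCA (the cyclic AMP response element), TGACG (the core of that element), TGANTCA (the AP-1 site), TGACATCA (the ATF/Jun site), GGGCGG (the Sp1 box), TATAAA and the CArG box of serum response factor.
Jun: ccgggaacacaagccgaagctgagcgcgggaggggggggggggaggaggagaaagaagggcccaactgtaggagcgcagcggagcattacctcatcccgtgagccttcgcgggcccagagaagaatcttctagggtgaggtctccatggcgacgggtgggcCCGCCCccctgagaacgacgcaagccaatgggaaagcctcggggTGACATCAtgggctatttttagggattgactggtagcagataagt
Jund: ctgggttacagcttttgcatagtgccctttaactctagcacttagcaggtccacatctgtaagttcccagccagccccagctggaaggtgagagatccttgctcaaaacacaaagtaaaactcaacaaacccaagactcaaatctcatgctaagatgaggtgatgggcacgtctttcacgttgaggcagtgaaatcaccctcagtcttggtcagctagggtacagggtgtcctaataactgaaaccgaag
The Jun window held 1 ATF/Jun site, with its 5′ end 45 bases before the start, and 1 Sp1 box. The ATF/Jun letters were in 2.93% of 32817 promoter windows of this length, and also in that of Klf6. The Jund window matched none of the 7 motifs, which says only that these letters are not in this window. The Sp1 box, found in 32.7% of all windows, was in those of Fos, Fosb, Ier3, Jun and Klf6. The core TGACG, in 17.7% of all windows and contained in the full element, was in those of Fos, Fosb and Junb, and TATAAA (12.4%) in that of Fos. None of the 7 windows held TGACGTCA, the AP-1 site or the CArG box. This covers these 250 bases alone, and sites further upstream were not searched.

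Across the series, 15788 to 16944 probes per array were detected at p under 0.05, and 11686 genes had a probe detected on at least 4 of the 8 arrays and were tested. The 1 Mogat1 probe was detected on no array (lowest detection p 0.814), so the knockdown cannot be read here. Liver markers such as Apoa1, Ttr and Cyp2e1 were detected, while the 1 probe of Alb, the albumin gene, was detected on no array. A probe without signal is therefore no sign that its gene was silent. Where the text gives the level of a gene, it is a background-corrected, quantile-normalized log2 value of 1 probe, and levels of different probes are not comparable. The mean level of a list is the average over its tested genes on an array, and is compared only between arrays. On the second principal component Mogat1 ASO replicate 1 lay at 29.4, away from the remaining arrays at -13.6 to 12.6, so counts are also given without it where they differ. The labels do not tie the mice to cages or batches, so each p-value rests on the spread between these 8 arrays alone.

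Of the 10 members, 7 were tested, and none passed the threshold of an adjusted p of 0.05 (limma, Benjamini-Hochberg over all probes tested), whereas 13.3% of all genes did (7.14% higher and 6.12% lower). At an unadjusted p under 0.05 there were 3 of 7, Jun, Jund and Ier3, against 28.8% of all genes. The log2 difference, Mogat1 ASO minus control ASO, was above 0 for 6 of the 7 with a median of 0.30, against a median of -0.0036 over all genes tested. Jun, Junb, Jund, Egr1, Ier3 and Klf6 were detected on all 8 arrays, and Fos on 5. The groups did not overlap for 1 of the 7, Jund, which was higher, and for 19.1% of all genes (10.3% higher and 8.81% lower).

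Jund, the Jun family member that is usually present in resting cells, had levels of 6.18, 6.45, 6.14 and 6.55 in control ASO replicates 1 to 4. In Mogat1 ASO replicates 1 to 4 its levels were 6.67, 6.88, 6.83 and 6.67. All 4 Mogat1 ASO livers lay above all 4 control livers. The difference was 0.43 on the log2 scale (SE 0.13, 95% interval 0.15 to 0.71, n = 4 each, 1.35-fold), with an adjusted p = 0.0507 by limma. It therefore stood just outside the threshold, and the adjusted p was 0.0299 to 0.136 over the alternative settings for this probe. It was under the threshold at 0.0433 without control ASO replicate 4 and at 0.0416 without Mogat1 ASO replicate 1.

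Jun, the AP-1 subunit that can pair with itself and with Fos proteins, had levels of 6.81, 6.88, 6.84 and 8.16 in control ASO replicates 1 to 4. Its levels in Mogat1 ASO replicates 1 to 4 were 7.35, 8.35, 8.01 and 7.71. Control ASO replicate 4 lay among the Mogat1 ASO livers, and the other 3 controls lay close together below all of them. The difference was 0.68 (SE 0.30, 95% interval 0.02 to 1.34, n = 4 each, 1.61-fold), with an adjusted p = 0.165 by limma. Without control ASO replicate 4 it was 1.01 with an adjusted p = 0.0147, so that array decides on which side of the threshold Jun falls.

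**Figure D1:**
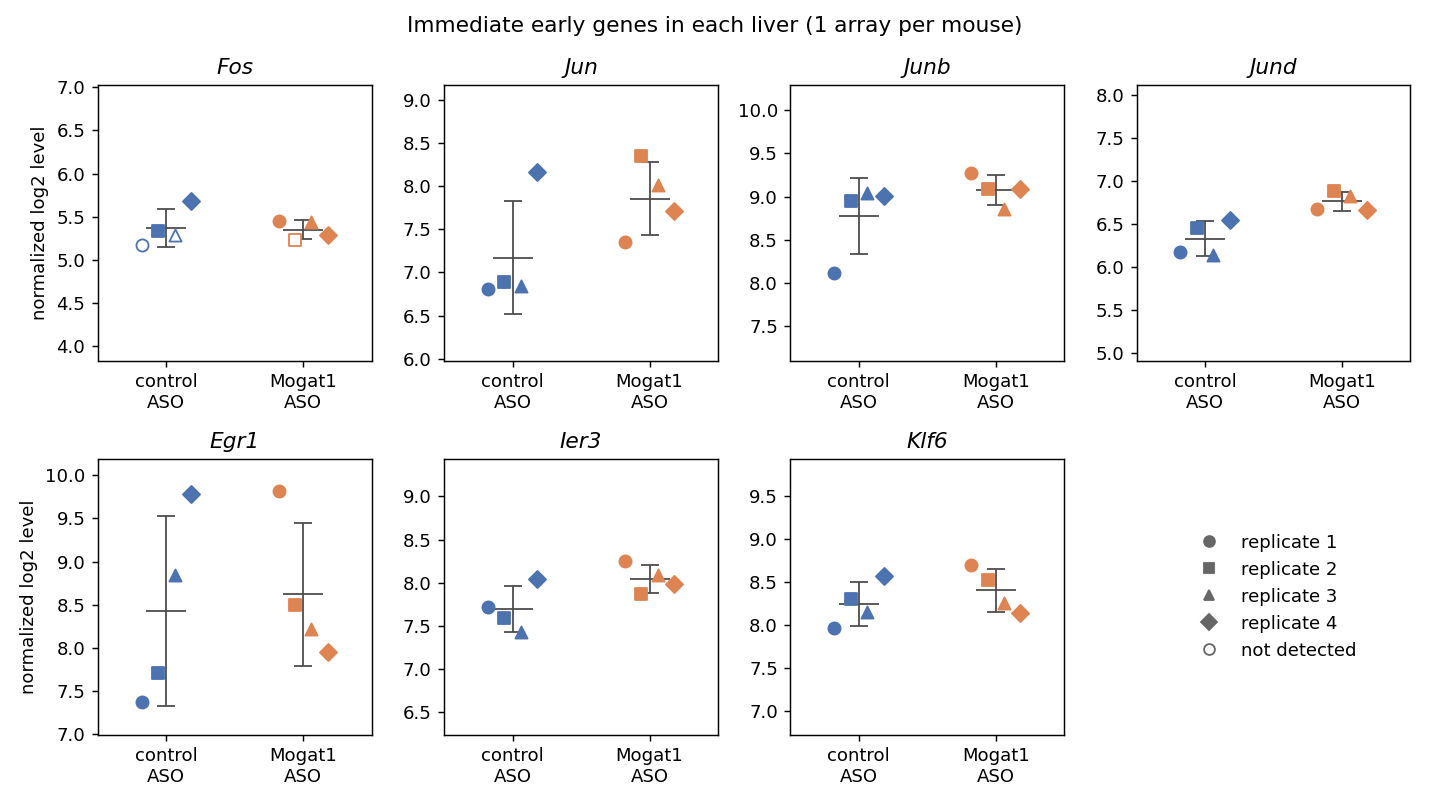
Normalized log2 level (vertical axes, all spanning the same number of log2 units) of the 7 tested members in each control ASO and Mogat1 ASO liver, with marker shape for the replicate, open markers for arrays on which the probe was not detected, and bars for the mean and SD of 4 arrays. The groups are separate for Jund, control ASO replicate 4 stands at 8.16 for Jun, and Egr1 spans 7.37 to 9.78 within the controls.

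Junb, which can restrain Jun, had levels of 8.12, 8.95, 9.04 and 9.0 in control ASO replicates 1 to 4 by its brighter probe. The Mogat1 ASO replicates stood at 9.27, 9.09, 8.85 and 9.09. Control ASO replicate 1 was the low array, and the other 7 lay within 8.85 to 9.27. The difference was 0.30 (SE 0.19, 95% interval -0.12 to 0.72, n = 4 each, limma adjusted p = 0.344), and 0.08 without control ASO replicate 1. The other Junb probe was detected on no array.

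Fos, the founding partner of the Jun proteins, was close to background. Its levels were 5.17, 5.33, 5.28 and 5.68 in control ASO replicates 1 to 4, detected in replicates 2 and 4. In Mogat1 ASO replicates 1 to 4 they were 5.45, 5.22, 5.43 and 5.29, detected in all but replicate 2. The groups overlapped and the difference was -0.02 (SE 0.14, 95% interval -0.32 to 0.29, n = 4 each, limma adjusted p = 0.951). Its sign changed with the scaling of the arrays, so no direction is given. Fosb, a close relative of Fos, was detected on no array (lowest detection p 0.138), so neither Fos family member gave a usable contrast.

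Egr1, a zinc finger factor that acts on growth, inflammatory and lipid genes, varied more between mice than between groups. Its levels were 7.37, 7.71, 8.84 and 9.78 in control ASO replicates 1 to 4, a 5.33-fold span. In Mogat1 ASO replicates 1 to 4 they were 9.82, 8.49, 8.22 and 7.95, a 3.64-fold span. The highest array of each group stood at almost the same level. Control ASO replicates 1 and 2 lay below all Mogat1 ASO livers, and replicates 3 and 4 lay among them. The difference was 0.19 (SE 0.51, 95% interval -0.93 to 1.32, n = 4 each, limma adjusted p = 0.845), an interval wide enough to hold a change of more than 1 log2 unit in the upward direction. The sign turned to -0.21 without Mogat1 ASO replicate 1, to -0.16 without control ASO replicate 1 and to -0.05 without control ASO replicate 2, and the difference was 0.64 without control ASO replicate 4.

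Ier3, a stress-inducible survival protein that is not itself a DNA-binding factor, had levels of 7.72, 7.59, 7.43 and 8.05 in control ASO replicates 1 to 4. In the Mogat1 ASO replicates they were 8.25, 7.86, 8.09 and 7.99. Control ASO replicate 4 lay among the Mogat1 ASO livers and the other controls lay below them. The difference was 0.35 (SE 0.14, 95% interval 0.04 to 0.67, n = 4 each, limma adjusted p = 0.133). Klf6, a Krüppel-like zinc finger factor, had levels of 7.96, 8.31, 8.15 and 8.56 in control ASO replicates 1 to 4 by its brighter probe. Its Mogat1 ASO replicates stood at 8.69, 8.52, 8.26 and 8.14. The groups overlapped, with a difference of 0.16 (SE 0.15, 95% interval -0.18 to 0.50, n = 4 each, limma adjusted p = 0.556). The other Klf6 probe was detected on no array.

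Ier2, a nuclear regulator induced by growth factors, was detected on no array (lowest detection p 0.0737). Myc, the factor that drives growth and ribosome production, had 2 probes. The brighter was detected on Mogat1 ASO replicate 2 alone, at a level of 5.29, while the remaining Mogat1 ASO arrays read 4.72 to 4.92 and the control arrays 4.62 to 4.66. The dimmer was detected on no array. No fold or test is given for these genes.

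**Figure D2:**
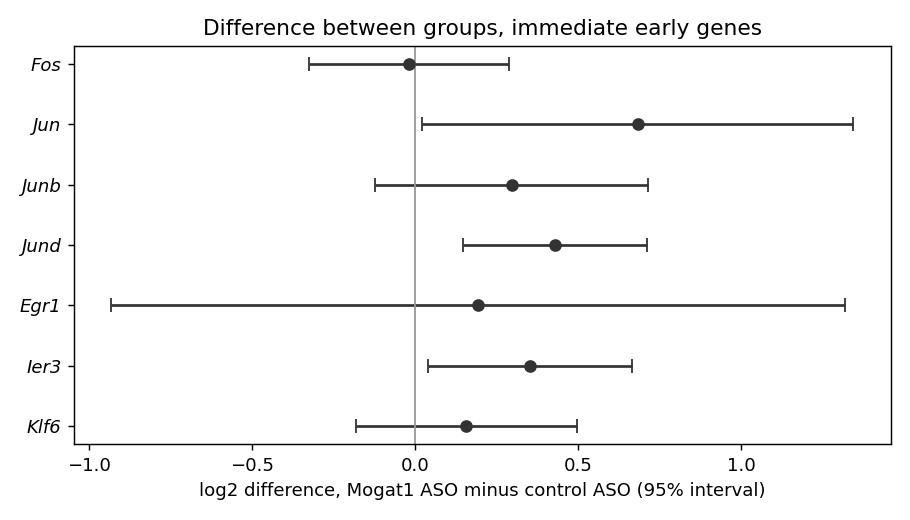
Log2 difference (horizontal axis, Mogat1 ASO minus control ASO, n = 4 each) of the 7 tested members, with bars for the 95% interval of the limma fit before adjustment for multiple tests. The intervals of Jun, Jund and Ier3 lie above 0, that of Egr1 runs from -0.93 to 1.32, and no member had an adjusted p under 0.05.

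The members differed widely in their spread between mice of the same group. The within-group SD of Egr1 was 0.97 on the log2 scale, above that of 99.6% of the genes tested, whose median was 0.18. Jun had 0.55, a higher SD than 97.8% of genes, and 89.3% without control ASO replicate 4. Junb had 0.33, at the percentile of 90.7, and 33.5 without control ASO replicate 1. Among the 500 genes nearest in level, 99.4% had a smaller SD than Egr1, 97.6% than Jun and 92.8% than Junb. The other members had an SD of 0.25 (Klf6), 0.22 (Ier3), 0.17 (Fos) and 0.16 (Jund), at percentiles of 77.4, 67.8, 48.5 and 41.8. Without control ASO replicate 4, Ier3 was at 39.3 and Fos at 13.1. With any 1 other array left out Fos was at 47.6 to 60.7, and Jund was at 54.1 without Mogat1 ASO replicate 1, so neither has a settled side of the median. Over the 30 tested genes of the list of other immediate early genes, the median percentile of the SD was 85.3, and 13 were in the top 10%. Medians of the other lists ran from 34.4 (MAP kinase and serum response factor pathway) to 98.3 (4 neutrophil markers). The list of AP-1 and Egr1 targets had 88.0, so a wide spread was not particular to immediate early genes.

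**Figure D3:**
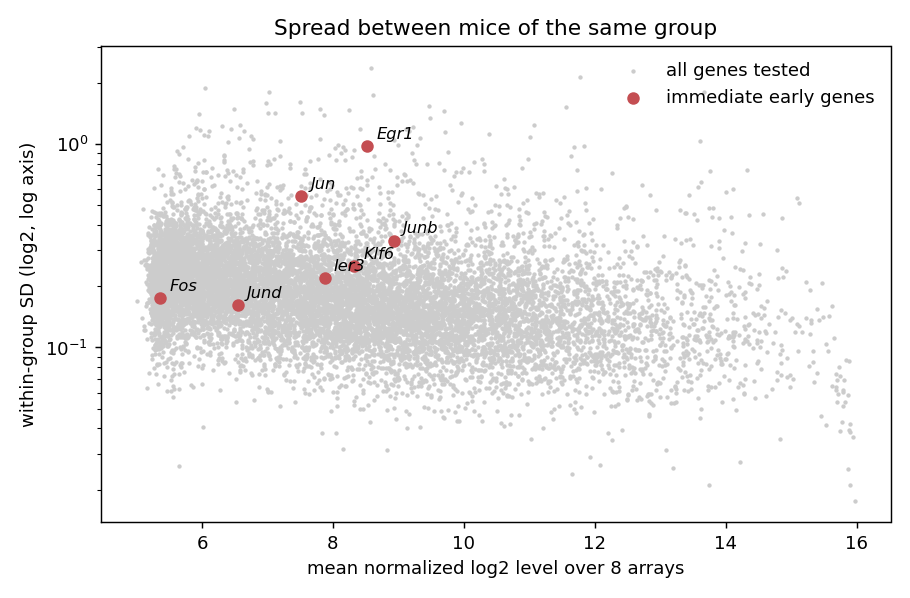
Within-group SD over the 8 arrays (vertical axis, log2 units on a log scale) against the mean normalized log2 level (horizontal axis) for all 11686 genes tested, in grey, and the 7 tested members, in red. Egr1 at 0.97 and Jun at 0.55 stand above most genes of like level, while Jund and Fos lie among most other genes.

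Members tended to be high or low on the same control arrays. Jun and Jund departed from the other members in the Mogat1 ASO group. Control ASO replicate 4 was the highest control for 6 of the 7 members, all but Junb, and control ASO replicate 1 was the lowest for 5. Among Mogat1 ASO livers, replicate 1 was the highest for 5, the exceptions being Jun and Jund, for which replicate 2 was the highest. Over the 8 arrays, deviations from the group means correlated above 0 in all 21 pairs of members, with Pearson's r of 0.01 to 0.82 and a median of 0.55, whereas 50.2% of all gene pairs did. Egr1 and Klf6 were the closest pair (0.82), followed by Fos and Ier3 (0.80) and by Jun and Jund (0.79). Junb and Ier3 were the least alike (0.01). These values share arrays and normalization, and with 8 arrays they are given as a description. They pool both groups and were not computed for each group or without control ASO replicate 4. That array deviated by 0.99 for Jun and by 1.36 for Egr1. On Mogat1 ASO replicate 1 the deviation was -0.50 for Jun and -0.09 for Jund, but 1.20 for Egr1.

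By the same measure, the 3 genes nearest to Egr1 were Cyp2c67 (r = 0.99), Kmt5a (0.98) and Tmem68 (0.96). Those nearest to Jun were Ubd (0.98), the locus LOC100046844 (0.98) and Akr1c14 (0.98). For Fos they were Ccl21a (0.97), Klk8 (0.96) and the locus LOC100048696 (0.94). With 11686 genes ranked over 8 arrays, values this high say nothing of shared function.

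Other genes of the response were read from lists chosen for their roles, with earlier results of these data known. The shares called in these lists are therefore a description. Of 43 other immediate early genes 30 were tested: Gadd45a and Fosl2 rose, Cebpd fell, and the rest did not pass, which is 10% called against 13.3% of all genes. Their median log2 difference was -0.0048, with 15 above 0 and 15 below. The count of calls was 5 without control ASO replicate 1 or without Mogat1 ASO replicate 1, and 2 to 4 without any 1 of the other arrays. Gadd45a, a stress-induced regulator of growth arrest, rose 1.94-fold (log2 difference 0.96, SE 0.23, n = 4 each, limma adjusted p = 0.0207). The Gadd45a adjusted p was 0.0640, 0.0524 and 0.0644 when control ASO replicate 3, Mogat1 ASO replicate 2 and Mogat1 ASO replicate 4 were left out in turn, which ended the call. Cebpd, a factor of the acute phase response, fell 1.68-fold (log2 difference -0.75, SE 0.12, limma adjusted p = 0.00311). Fosl2, a further Fos family member, rose 1.40-fold (log2 difference 0.49, SE 0.14, limma adjusted p = 0.0424). The Fosl2 call ended under 7 of 19 alternatives, with 0.0852 without control ASO replicate 1, 0.103 without control ASO replicate 2, 0.0756 without control ASO replicate 4, 0.123 without Mogat1 ASO replicate 3 and 0.0916 without Mogat1 ASO replicate 4. Nr4a1, Nr4a3, Klf4, Ier5, Btg2 and Arc, genes of the fast wave, were detected on no array.

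Among 13 tested partners of AP-1 and related leucine zipper factors, 2 rose and 1 fell (23.1% called against 13.3% of all genes). Their median was -0.11. These 3 calls became 5 without Mogat1 ASO replicate 1 and 1 without Mogat1 ASO replicate 4. Crem, whose products bind cyclic AMP response elements and often repress there, fell 2.03-fold (log2 difference -1.02, SE 0.11, n = 4 each, limma adjusted p = 5.37e-04). Batf2 and Batf, Jun partners known from immune cells, rose 1.49-fold (SE 0.13, adjusted p = 0.0180) and 1.43-fold (SE 0.13, adjusted p = 0.0281) by limma. Batf2 was detected on 3 and Batf on 2 control arrays. The call of Batf2 ended without Mogat1 ASO replicate 4 (0.0520). That of Batf ended with median scaling (0.0567), no filter (0.0519), the replicate block (0.0620), without control ASO replicates 2, 3 or 4 (0.0537, 0.0792 and 0.0697) and without Mogat1 ASO replicates 3 or 4 (0.0713 and 0.0819).

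Upstream, none of 25 tested genes of the MAP kinase and serum response factor pathway passed, with a median of -0.07, but 1 passed as lower without Mogat1 ASO replicate 1, with array weights and with the replicate block. The brightest, the kinase genes Map2k3 and Map2k2, differed by -0.13 (SE 0.09) and -0.13 (SE 0.09), with limma adjusted p of 0.350 and 0.408. Egfr, the growth factor receptor, named after its value was seen, had the largest difference of this list at -1.38 (SE 0.51, limma adjusted p = 0.0995). Its level in Mogat1 ASO replicate 1, 12.72, lay inside the control range of 12.20 to 12.77, and the other Mogat1 ASO livers read 10.37, 9.58 and 11.29. Of 14 negative feedback regulators 2 rose and none fell (14.3% called against 13.3% of all genes), with a median of 0.05. The count was 1 without control ASO replicate 1, 2 or 3 and 0 without Mogat1 ASO replicate 2, 3 or 4, when 12 of the list were tested. The phosphatase gene Dusp2 was detected on no control array and on all 4 Mogat1 ASO arrays, and was at least 1.80-fold higher (limma adjusted p = 0.00427). It entered the test through the Mogat1 ASO arrays alone, so its call is no independent sign of a difference. Dusp4, also a MAP kinase phosphatase, rose 1.44-fold (SE 0.15, limma adjusted p = 0.0399). The Dusp4 call ended under 9 of 19 alternatives, with an adjusted p of 0.0620 to 0.115 without any 1 of control ASO replicates 1 to 3 or Mogat1 ASO replicates 2 to 4. With the mean of its probes the difference was 0.22 (adjusted p = 0.378).

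In the Myc network, 1 of 9 tested partners rose and 1 fell (22.2% called against 13.3% of all genes), with a median of 0.11. Neither call was left without control ASO replicate 2, control ASO replicate 4 or Mogat1 ASO replicate 3. The count was 1 without control ASO replicate 1, control ASO replicate 3 or Mogat1 ASO replicate 2. Mxd1, a partner of Max that opposes Myc, rose 1.6-fold (log2 difference 0.68, SE 0.17, n = 4 each, limma adjusted p = 0.0275). The Mxd1 call was lost on leaving out control ASO replicate 1, 2 or 4 (0.0519, 0.0630 and 0.0579) or Mogat1 ASO replicate 2 or 3 (0.0590 and 0.0862). Mlxipl, the carbohydrate-responsive factor ChREBP, fell 1.33-fold (log2 difference -0.41, SE 0.11, limma adjusted p = 0.0363). That call ended under 7 of 19 alternatives, with 0.103, 0.0910 and 0.0860 without control ASO replicates 2, 3 and 4 and 0.103 without Mogat1 ASO replicate 3. None of 21 Myc targets of growth and ribosome assembly passed, with a median of 0.05, and 1 was higher without Mogat1 ASO replicate 1. Ldha and Npm1, the brightest, differed by -0.06 (SE 0.07) and 0.19 (SE 0.10).

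Of 16 tested genes known as AP-1 or Egr1 targets, 6 rose and none fell (37.5% called against 13.3% of all genes), with a median of 0.64. The lectin gene Lgals3 rose 1.91-fold (SE 0.18, limma adjusted p = 0.00824) and the adhesion gene Icam1 1.85-fold (SE 0.18, adjusted p = 0.00899). The intermediate filament gene Vim rose 1.75-fold (SE 0.18, adjusted p = 0.0162) and the protease gene Plau 1.66-fold (SE 0.13, adjusted p = 0.00577). The other two were Cd44 (1.64-fold) and Pdgfb (1.47-fold). The Vim call ended without control ASO replicate 2 (0.0518), control ASO replicate 3 (0.0553) or Mogat1 ASO replicate 3 (0.0513), and the list then held 4 calls each. Lgals3, Vim, Cd44 and Icam1 are also expressed by macrophages. Of 14 tested markers of macrophages and Kupffer cells, 5 rose and 1 fell (42.9% called against 13.3% of all genes). Those that rose were the complement genes C1qa, C1qb and C1qc, the lysozyme gene Lyz2 and Ms4a7. The scavenger receptor gene Cd163 fell. These 6 calls became 3, of which 2 were higher, without control ASO replicate 3, without Mogat1 ASO replicate 3 or with median scaling, and 8 without Mogat1 ASO replicate 1. Differences were above 0 for 9 of the 14 and below 0 for 5. Besides Cd163, those below 0 were Adgre1 (-0.02), Clec4f (-0.10), Csf1r (-0.045) and Timd4 (-0.45), none past the threshold. The mean level of that list was 8.86 to 9.24 in control and 9.08 to 9.68 in Mogat1 ASO livers. The part of macrophages in the target list was not tested. In bulk liver, a change in the number of cells of a type and a change in RNA per cell cannot be told apart.

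**Figure D4:**
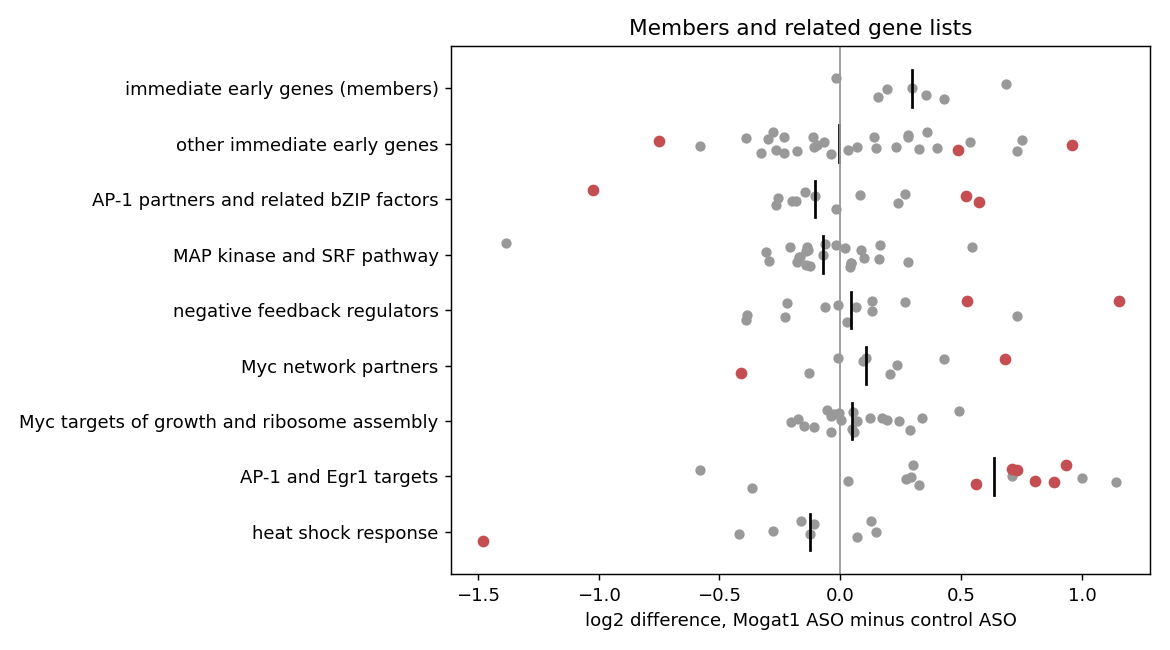
Log2 difference (horizontal axis, Mogat1 ASO minus control ASO) of each tested gene of the members and of 8 related lists, in red where the limma adjusted p was under 0.05 and in grey otherwise, with black bars for the medians. The members hold no red point, and the list of AP-1 and Egr1 targets holds 6, all to the right of 0.

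Among other cell types, 1 of 11 endothelial markers rose and 1 fell (18.2% called against 13.3% of all genes). None of 7 lymphocyte markers (T, B and NK cells), of 4 neutrophil markers or of 3 cholangiocyte markers passed. All 7 lymphocyte differences were above 0, with a median of 0.27. Without Mogat1 ASO replicate 1, the endothelial calls were 3 and 1 lymphocyte marker was higher. Of 7 stellate cell markers 1 fell and none rose (14.3% called). That call was lost in 7 of 19 alternatives. These were the sets without control ASO replicate 1, 2 or 3 and without Mogat1 ASO replicate 2 or 4. The other alternatives that lost it had no filter on dim probes or no variance trend. Of 9 tested hepatocyte markers none passed, with a median of -0.29 and a mean level of 13.19 to 13.40 in control and 12.86 to 13.22 in Mogat1 ASO livers. Without Mogat1 ASO replicate 1 or with array weights 3 hepatocyte markers passed, all lower, and 1 passed as lower with median scaling, with the mean of the probes and with the replicate block. Of 9 heat shock genes 1 fell (11.1% called), and 2 were lower without Mogat1 ASO replicate 1 or 2. The 1 that fell was Hspb1, a small heat shock protein, by 2.78-fold (log2 difference -1.48, SE 0.26, n = 4 each, limma adjusted p = 0.00462). The brightest of that list, Hspb8, differed by 0.13 (SE 0.09, adjusted p = 0.432).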

How the data were processed

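The authors deposited non-normalized values: for each probe and array the table holds an intensity with its detection p-value, per the file headers. The authors also deposited a processed intensity, on a linear scale with background subtracted, which served as an alternative. The software behind both sets of values, not given in the sources used here, is unknown. For the member probes, like processed values went with like normalized levels on different arrays. Jun in Mogat1 ASO replicate 1 had 135.1 at a level of 7.35, and Egr1 in control ASO replicate 1 had 136.6 at 7.37. That alternative is therefore close to the main setting and is no independent check. Per the labels' protocols, T7 polymerase served for linear amplification and biotin as the label.

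Background correction (normexp, with negative controls inferred through detection p-values), an offset of 16, quantile normalization and log2 followed (neqc, limma 3.58.1, R 4.3.3). Tests by lmFit and eBayes (variance trend) covered the 16487 probes with detection p under 0.05 on 4 or more arrays, two-sided, with Benjamini-Hochberg adjustment and a threshold of 0.05. A gene was represented by its brightest probe, which gave 11686 genes. Folds are antilogs of log2 differences. Where no array of a group detected a probe, the fold is a bound against the lowest level among detected probes. Symbols were updated through the RefSeq table of GRCm38.p6 (27740 current, 8037 updated, 122 ambiguous, 9382 unmatched). Figures were drawn with matplotlib 3.10.9. The steps were tested on simulated data.

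Precision is limited by the number of mice, since arrays give no counts. The members and lists were chosen with earlier results of these data known. From each related list up to 4 genes past the threshold were named, by size, filled to 2 with the brightest.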

Additional observations from a re-analysis of the deposited data

Results flagged for a closer look

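Of 54 groups of 4 arrays checked, over the 7 tested members and the 20 named related genes, 3 held an array far from the others by Dixon's criterion, and chance alone gives about 1 in 20. Control ASO replicate 4 stood at 8.16 for Jun, with a gap of 0.94 of the group's range. Control ASO replicate 1 stood at 8.12 for Junb, with a gap of 0.90 of the range. Mogat1 ASO replicate 3 stood at 6.34 for Crem, with a gap of 0.85 of the range.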

How the results depend on the processing

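The members past the threshold were none in the settings used and 1, Jund, without background correction, with an offset of 50, with probes detected on all arrays of a group, without a variance trend and with array weights, counted as probes or as genes, and 1 gene with the mean of the probes. Leaving out 1 array gave 0 to 2 genes or probes. The cause was not tested. With the replicate block the count of members was 0 and the adjusted p of Jund was 0.0741. Deviations of same-numbered arrays correlated at 0.23, 0.07, -0.02 and -0.01, so the numbers were not taken to pair the mice, and the count of all genes called moved from 1549 to 1489. The related lists together had 17 genes called, 29 with array weights and 9 to 24 with 1 array left out: 10 without control ASO replicate 2, 11 without control ASO replicate 3 and 9 without Mogat1 ASO replicate 3. Over all genes, 1549 were called, 951 with median scaling, 2610 with array weights and 851 to 2226 with 1 array left out. The difference of Fos was 0.0051 with median scaling and -0.084 to 0.087 with 1 array left out. That of Egr1 was -0.10 with array weights and -0.21 to 0.64 with 1 array left out. By their brighter probes, Jun, Junb, Jund, Ier3 and Klf6 kept a difference above 0 in all 19 alternatives. The settings of the filter, the mean of the probes, the variance and the replicate block leave the difference of a probe unchanged by design. The sign could therefore change only in the other settings. Slide as a block was not run, since the headers name no slide. Low signal limits Fos, Fosb, Ier2 and Myc.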
